A study of Homo sapiens with 5 samples.

Results

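The regions described here were the MYC-bound sites of OVCAR8 cells, taken as every merged interval that held a peak from each of 2 MYC CUT&RUN libraries called against an IgG library. The peak lists of both libraries were merged wherever peaks shared at least 1 bp on chromosomes 1-22, X and Y, which gave 26334 intervals, and 11756 of these contained a peak of both libraries and were kept as reproducible MYC peaks. The 4 peak lists of the whole series, for MYC and for HSF1, held 49781 peaks. CUT&RUN uses an antibody to tether a nuclease to chromatin, so that the DNA fragments it releases come from around the bound protein. OVCAR8 is an established human ovarian carcinoma line, which the study treats as one with extra copies of both the MYC and the HSF1 gene. The cells of every library were proliferating, received no treatment and were fixed with 1% formaldehyde for 1 min, and each reaction started from 500000 cells. The groups used here were MYC, with 2 libraries, and IgG, an antibody with no chromatin target, with 1 library that served only as the background for calling peaks. No label says whether the MYC libraries came from separate cultures, and the results hold for this single cell line.

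MYC is a transcription factor that binds DNA as a heterodimer with MAX, and its preferred site is the E-box CACGTG. It is known for binding the promoters of genes for ribosome production, nucleotide synthesis, glycolysis and cell cycle entry, and MXD and MNT proteins compete with it for MAX at the same sites. In cancer cells with raised MYC, binding is also found at many active promoters that lack the E-box.

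The E-boxes inside some of these promoter peaks show the sequence that MYC is known to prefer. CAD, the enzyme of the opening steps of pyrimidine synthesis, ODC1, which opens polyamine synthesis, NCL (nucleolin), LDHA (lactate dehydrogenase), CDK4, a kinase of G1 phase, and EIF4E, the mRNA cap-binding factor, are textbook targets. MAX, MNT and MXD3 belong to the MYC and MAX network, and DDX42, an RNA helicase, lay in the interval with the most fragments outside repeated small RNA genes. The sequences are the GRCh38 plus strand, 5′ to 3′, with the E-box in capitals. It is a palindrome and reads alike on both strands.
CAD (chr2:27217468-27217497): gcgcgccgtcctCACGTGgttccagtggag
ODC1 (chr2:10448803-10448832): cgatgtgctggcCACGTGggccccgccggg
NCL (chr2:231463996-231464025): cgcgctcccgggCACGTGcgtcaggagtcg
LDHA (chr11:18394436-18394521): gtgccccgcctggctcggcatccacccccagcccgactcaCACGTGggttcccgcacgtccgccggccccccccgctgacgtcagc
CDK4 (chr12:57752394-57752423): ggacgttctgggCACGTGaccgccacccat
EIF4E (chr4:98929160-98929245): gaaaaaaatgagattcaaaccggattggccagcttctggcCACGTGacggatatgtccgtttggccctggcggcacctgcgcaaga
MAX (chr14:65102821-65102906): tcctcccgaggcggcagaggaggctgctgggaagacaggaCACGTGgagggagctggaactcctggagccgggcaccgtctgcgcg
MNT (chr17:2401208-2401293): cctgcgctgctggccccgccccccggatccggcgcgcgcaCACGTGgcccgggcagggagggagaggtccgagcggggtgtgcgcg
MXD3 (chr5:177312236-177312321): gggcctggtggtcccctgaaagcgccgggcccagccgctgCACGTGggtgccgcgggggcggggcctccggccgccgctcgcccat
DDX42 (chr17:63773837-63773866): gctgtgtgggacCACGTGgccagaggcaag

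Counted from the nearest annotated start of the gene, these E-boxes stood at -14 for DDX42, 41 for CDK4, -67 for EIF4E, 72 for CAD, -84 for LDHA, -144 for MNT, -166 for MAX, 172 for NCL, -378 for MXD3 and -488 for ODC1, where negative values are upstream. The summit, the base of the peak with the most fragments, lay from the E-box, counted along the plus strand, at -18 bp for LDHA, -33 for CDK4, 84 for MAX, 101 for ODC1, -128 for MXD3, 135 for DDX42, 143 for CAD, 149 for MNT, -156 for EIF4E and 583 for NCL. Of these 10 the NCL E-box was thus far from its summit, and the others were within 156 bp. Among E-boxes located but not shown, those of NPM1 (-848), NOP56 (370) and JMJD6 (-349) were also far from the summit. Those of BRD2 (-144) and IGF2BP1 (-86) were nearer. Some intervals held several E-boxes, such as 5 each at NCL and CDK4, and only 1 per gene is given here. The match of letters is a description, and whether MYC contacted these bases was not measured.

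Both MYC libraries had a similar number of fragments and differed in how many peaks they gave. After filtering, 8265647 fragments were used in replicate 1 and 10084407 in replicate 2, against 9306942 in the IgG library. Replicate 1 gave 25623 peaks over 14.5 Mb and replicate 2 gave 13278 peaks over 7.73 Mb, so the library with fewer fragments had the longer list. The median peak length was 460 bp and 451 bp, and the median summit pileup, the number of fragments that cover the summit, was 25 in both.

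The shorter list was almost wholly contained in the longer one. In replicate 2, 92.6% of the peaks fell in reproducible intervals, against 46.9% in replicate 1. Of the 11756 intervals, 10995 (93.5%) joined a single peak of each replicate, and 501 joined 1 peak of replicate 1 with several of replicate 2. Peaks that only replicate 1 had numbered 13597, with a median pileup of 21 and 29.1% of summits at promoters, and those that only replicate 2 had numbered 981, with a median pileup of 17 and 47.3% at promoters. The share of peaks found in the other list rose with peak height. In the lowest decile by pileup it was 15.3% for replicate 1 and 73.6% for replicate 2, and in the highest decile it was 94.0% and 99.9%. It also differed by location in replicate 1, where 64.4% of promoter peaks but 32.0% of intron and of intergenic peaks were in the other list, while in replicate 2 all location classes lay between 89.3% and 94.3%.

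**Figure D1:**
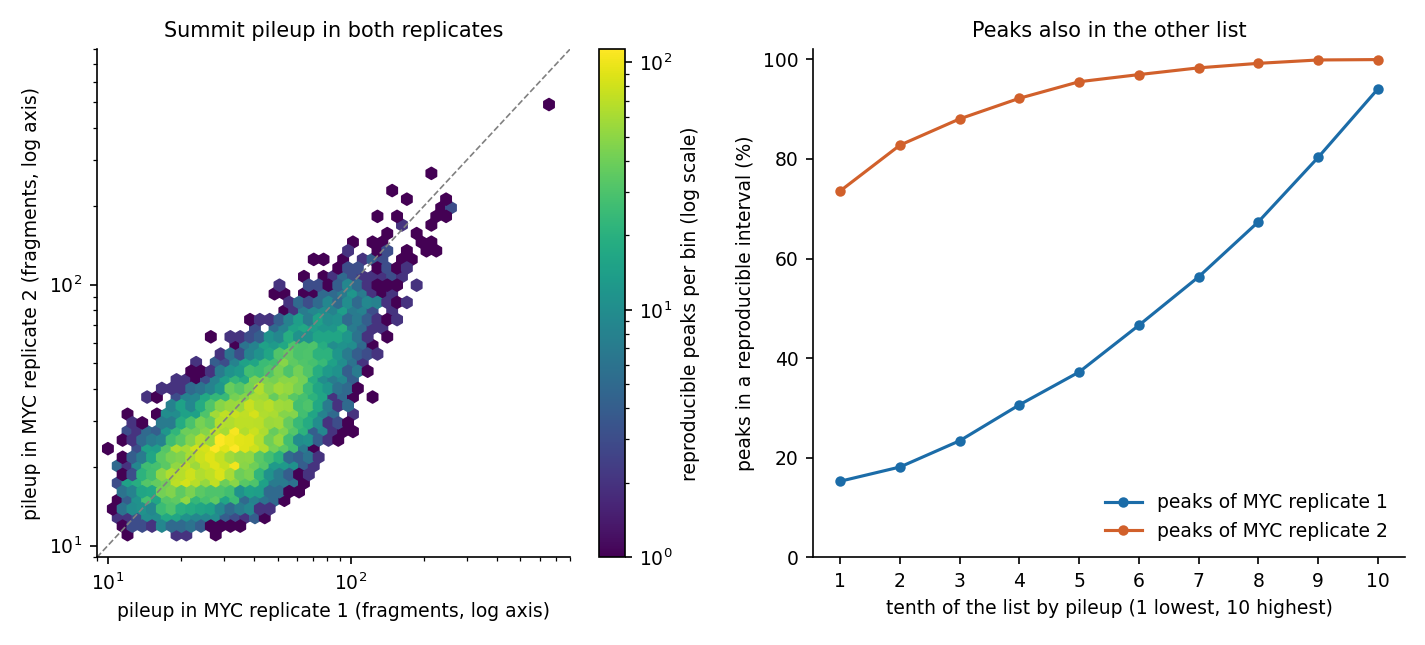
Left, summit pileup of reproducible MYC peaks in replicate 1 against replicate 2 in fragments on log axes, with colour for the number of peaks per bin and a dashed line of equality. Right, the percentage of each replicate's peaks that lay in a reproducible interval, by decile of pileup, which rose from 15.3% to 94.0% in replicate 1 and from 73.6% to 99.9% in replicate 2.

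Within reproducible peaks, the height ranks of both libraries were related. The median pileup was 35 in replicate 1 and 27 in replicate 2, or 4.23 and 2.68 when scaled to 1000000 fragments a library, and across the 11756 intervals Spearman's rho was 0.70 (across intervals, which are not independent replicates). The scaled pileup was higher in replicate 1 at 89.9% of the intervals, with a median ratio of 1.53 and a range from the 5th to the 95th percentile of 0.891 to 2.68. The ratio was 1.502 at promoters and 1.59 in introns. Of the 1000 highest intervals of each replicate, 597 were shared. Summits of the replicates lay a median of 77 bp apart, within 250 bp in 80.2% of intervals and more than 500 bp apart in 461. The peak of replicate 1 was the longer one in 75.04% of intervals, with medians of 703 and 490 bp.

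Reproducible MYC peaks were mostly at promoters when every annotated transcript start counted, and not when only the 5′ end of each gene did (38.4%). A promoter was taken as 1000 bp upstream to 100 bp downstream of any annotated transcript start, and a location was set by the higher summit of the interval. Promoters held 7005 summits (59.6%, 95% Wilson interval 58.7 to 60.5, which covers counting error only), while these windows made up 3.36% of the chromosomes. Introns held 2648 (22.5%), intergenic sequence 1418 (12.1%) and exons 685 (5.83%). The single lists had 43.4% of summits at promoters in replicate 1 and 56.4% in replicate 2. In the lowest quintile of reproducible peaks by pileup 52.5% were at promoters, and in the highest quintile 69.1%. Heights differed little between classes, with median pileups of 36 and 28 at promoters, 33 and 24 in introns and 34 and 25 in intergenic sequence, in replicates 1 and 2.

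The summits lay on both sides of transcription starts. The median distance to the nearest start was 207 bp, 54.2% of summits were within 250 bp and 14.9% were more than 10 kb away. Of summits within 1 kb, 50.7% were upstream. Around the 5′ ends of protein-coding genes, the densest 100 bp bins were those from 100 to 200 bp upstream (5.24 summits per 100 genes) and from 100 to 200 bp downstream (5.31), with 3.41 in the 100 bp just upstream of the start. The replicates differed here: the maximum of replicate 1 was from 100 to 200 bp upstream, with 8.20 summits per 100 genes, and that of replicate 2 from 100 to 200 bp downstream, with 8.30. The cause was not tested.

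The width of reproducible intervals had a median of 774 bp, with quartiles of 562 and 1077 bp and a range from 192 to 5918 bp. Promoter intervals were the widest class, with a median of 836 bp, against 685 bp in introns and 680 bp between genes. Higher peaks were wider: the median rose from 542.5 bp in the lowest quintile by pileup to 1144 bp in the highest, and rho between width and pileup was 0.53. Intervals over 2000 bp numbered 357 (3.04%), of which 243 (68.1%) were at promoters. Merging can only widen an interval, and the part covered by peaks of both replicates was narrower.

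The widest intervals were at PLEC, BRD2 and lncRNA genes. PLEC, which encodes the cytoskeletal linker plectin, had the widest, 5918 bp in an intron (chr8:143948271-143954188, pileup 106 and 93), and another of 4780 bp at its promoter (chr8:143936320-143941099, 153 and 110). BRD2, a reader of acetylated histones, had 4858 bp at its promoter (chr6:32967802-32972659, 115 and 125). The other two of the widest 5 were at lncRNA genes, with 4502 bp and a promoter summit on chromosome 16 (76 and 64) and with 4476 bp and an exon summit on chromosome 3 (57 and 63). All 5 were covered by more than 50 fragments at the summit in each replicate.

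**Figure D2:**
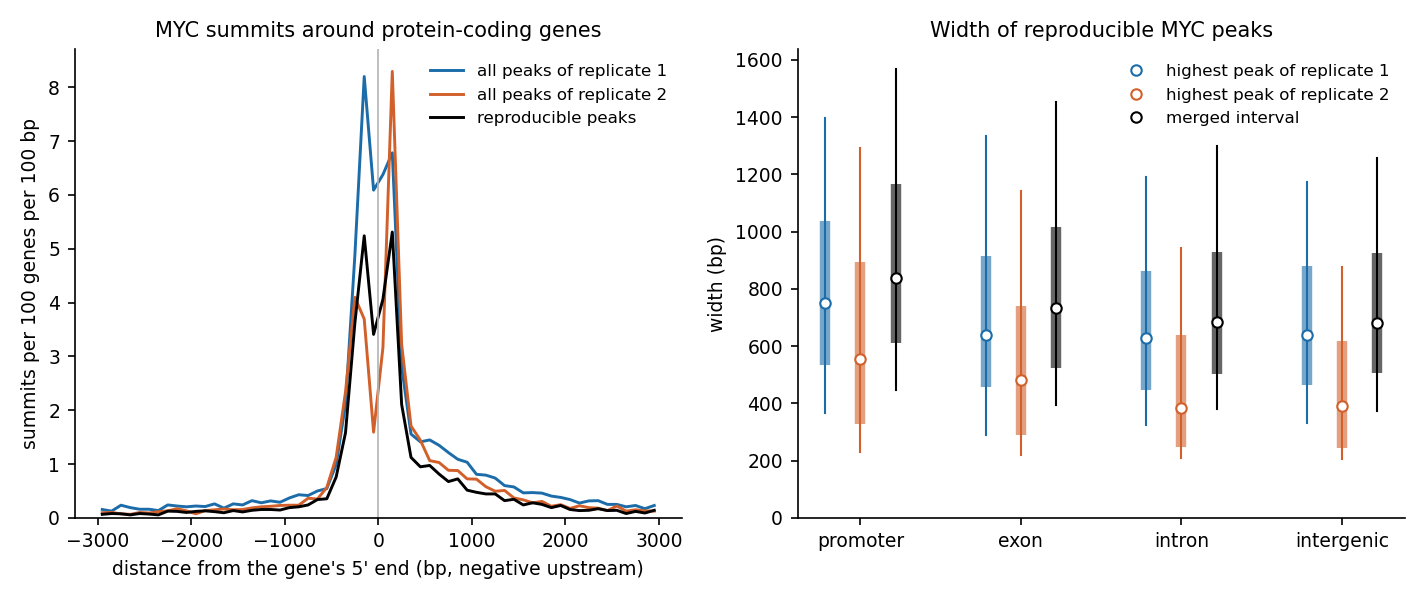
Left, summits of peaks per 100 protein-coding genes in 100 bp bins of distance from the gene's 5′ end, for reproducible peaks and for each replicate. Right, widths in bp of the highest peak of each replicate and of the merged interval by location of the summit, with circles for medians, thick bars for quartiles and thin lines for the 10th to 90th percentile, where merged promoter intervals had the highest median, 836 bp.

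At the level of genes, a gene was called MYC-bound where a reproducible interval overlapped the promoter of any of its annotated transcripts. Of 20033 protein-coding genes 7727 were bound, a background of 38.6% against which every group below is read, and of 18866 lncRNA genes 2497 (13.2%). By the single lists, 10758 coding genes (53.7%) were bound in replicate 1 and 7968 (39.8%) in replicate 2, and 9029 had no promoter peak in either. The bound genes had median pileups of 37 and 29. An interval at a promoter could belong to several genes: 1259 intervals (10.7%) overlapped promoters of 2 or more coding genes, 5900 (50.2%) of 1, and 4597 (39.1%) of none. Several separate intervals lay at the promoters of 716 coding genes. SEPTIN9, a septin with many transcript starts, had the most with 7, followed by PLEC with 6 and UBTF, the RNA polymerase I transcription factor UBF, with 5.

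Bound genes were more frequent where the start was CpG-rich, a feature of broadly active promoters. Of 11620 coding genes whose 1000 bp around the 5′ end had a GC content of at least 0.5 and an observed over expected CpG ratio of at least 0.6, 6198 were bound (53.3%), against 1529 of 8413 other coding genes (18.2%). The order was the same in each list, with 72.3% and 28.0% in replicate 1 and 54.9% and 18.8% in replicate 2. Once a gene was bound, the heights were alike, with median pileups of 37 and 30 at CpG-rich starts and 37 and 28 at the others. This split was chosen after values had been seen.

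The E-box was found in a minority of peaks and stood beside the summit rather than on it. Within 100 bp of the summit, the main window, 978 of 11756 intervals (8.32%, Wilson 7.83 to 8.83) held CACGTG, against 3.07% of windows 1 kb away and 5.88% of windows on all coding gene starts. At this window the share was 11.6% of the 1000 highest intervals and 8.0% (4.11 to 14.998) of the 100 highest, so the 100 highest did not exceed all peaks. A window of 250 bp was the alternative, and is used below because E-boxes were densest more than 100 bp from the summit. Within 250 bp of the summit, 2783 of 11756 intervals (23.7%, Wilson 22.9 to 24.4) held CACGTG, against 7.18% of windows of the same length 1 kb away and 11.1% of such windows centred on all coding gene starts. The share was 23.9% at promoters and 23.4% elsewhere. It rose with height from 14.8% in the lowest quintile to 36.0% in the highest, and reached 41.7% of the 1000 highest intervals and 52.0% (42.3 to 61.5) of the 100 highest. Among coding genes with CpG-rich starts, the window centred on the gene's start held an E-box in 16.97% of bound and 9.41% of unbound genes, and among the others in 10.3% and 7.42%.

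By distance from the summit, E-boxes were most frequent from 100 to 150 bp away, with 0.929 per kb. That was 5.58 times the 0.167 per kb found from 500 to 1000 bp away, while the innermost 50 bp had 0.252 per kb, a ratio of 1.51. The pattern was the same around each replicate's own summits, with ratios of 5.40 and 5.20 from 100 to 150 bp and of 1.55 and 1.27 in the innermost 50 bp. In the highest quintile of peaks the ratio from 100 to 150 bp was 8.14, and in the lowest 3.32. CAGCTG, an E-box that other helix-loop-helix factors prefer, varied little by distance over all peaks, with ratios of 1.23 to 1.29 within 250 bp. At peaks outside promoters its ratio was 1.47 from 100 to 150 bp and 1.29 in the innermost 50 bp. CATGCG, also counted over all peaks, had 3.57 from 100 to 150 bp and 2.28 in the innermost 50 bp. CACGCG, a weaker MYC site rich in CpG, was also densest from 100 to 150 bp, with a ratio of 3.61, and had 2.58 in the innermost 50 bp. Within 100 bp it was held by 11.3% of summits, more than the 8.32% for CACGTG, and by 2.90% of windows 1 kb away, but also by 10.0% of windows on all coding starts. The distance bins were chosen after values had been seen, and the fragments of these libraries averaged 180 and 191 bp.

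**Figure D3:**
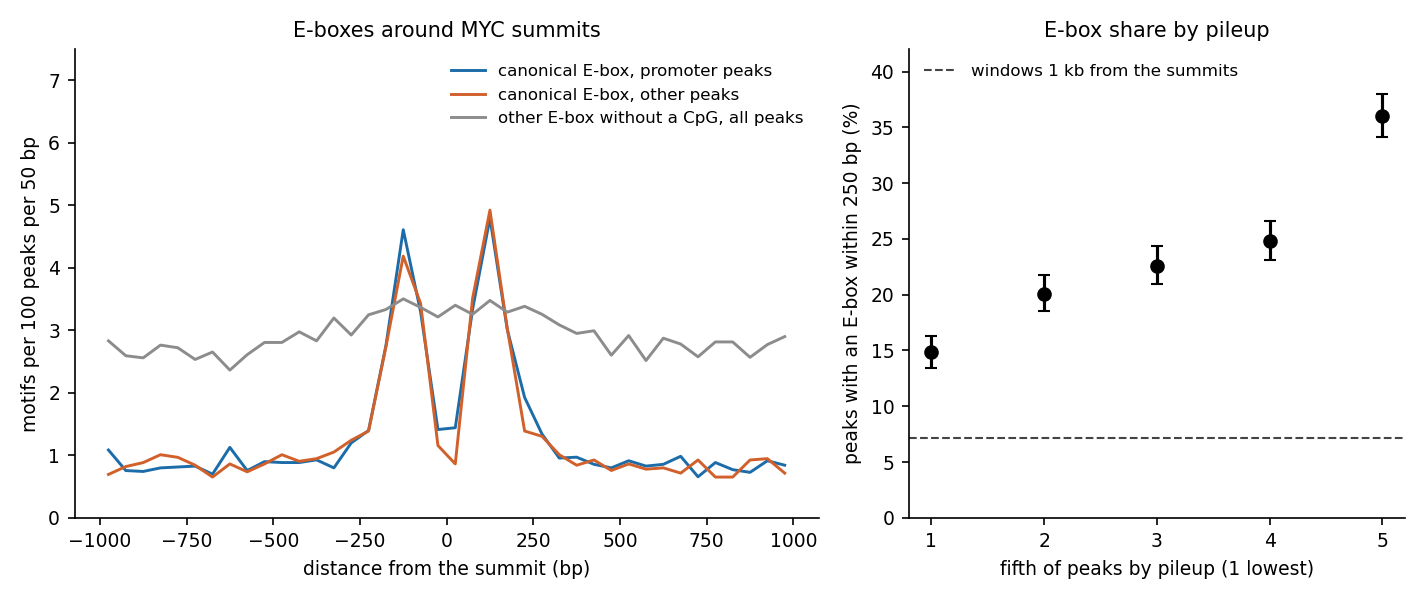
Left, motifs per 100 peaks in 50 bp bins of distance from the summit, for CACGTG at promoter peaks and at other peaks and for CAGCTG at all peaks, with the CACGTG maxima 100 to 150 bp from the summit on both sides. Right, the percentage of reproducible intervals with CACGTG within 250 bp of the summit by quintile of pileup, with 95% Wilson intervals and a dashed line for windows 1 kb away, which rose from 14.8% in the lowest quintile by pileup to 36.0% in the highest.

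Genes for making ribosomes were among the most often bound groups. Of 50 nucleolar ribosome biogenesis genes 48 (96%) were bound, against the 38.6% of all coding genes, and all 50 had a promoter peak in replicate 1. The median pileup was 49.5 and 44. NPM1, the nucleolar chaperone nucleophosmin, was the highest with 80 and 93 fragments, and EBNA1BP2 the lowest with 20 and 17. The 2 exceptions, the helicase DDX56 and NOB1, a nuclease of 18S rRNA maturation, had a peak in replicate 1 only, of 18 and 39 fragments. The E-box was frequent in this group: 28 of the 48 bound genes (58.3%) had one within 250 bp of the summit, against 1881 of all 7727 bound coding genes (24.3%).

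Of 80 cytosolic ribosomal protein genes 69 (86.2%) were bound, 74 in each single list. The range ran from RPLP2 with 99 and 93 fragments to RPL36A with 16 and 24. Here 14 of 69 (20.3%) had an E-box by the summit. Among RNA polymerase I and III machinery 28 of 35 (80.0%) were bound, with GTF3C4, a subunit of TFIIIC, highest at 78 and 91 and POLR3C lowest at 27 and 19. Hosts of snoRNAs, which guide rRNA modification, are mostly lncRNA genes, whose background was 13.2%, and were bound in 24 of 25 cases, from ZFAS1 with 123 and 130 to EPB41L4A-AS1 with 17 and 28, and SNHG30 had no peak in either list. Most hosts had CpG-rich starts (23 of 25), and 22 of these 23 were bound, against 53.3% of coding genes with such starts. The intervals of the bound hosts were wide, with a median of 1593.5 bp, and 11 of 24 (45.8%) had an E-box.

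Genes of translation were also mostly bound. Of 45 translation factors 36 (80.0%) were bound, EIF3B the highest with 129 and 148 and EIF3G the lowest with 13 and 20. Of 22 aminoacyl-tRNA synthetase genes and partners 17 (77.3%) were bound, with the scaffold AIMP2 highest at 109 and 92 and MARS1 lowest at 15 and 16. EPRS1, GARS1, HARS1, KARS1 and RARS1 were not. Of 78 mitochondrial ribosomal protein genes 50 (64.1%) were bound, from MRPS18B with 169 and 212 fragments to MRPL35 with 14 and 18. The interval of MRPS18B was shared with the gene PPP1R10 and cannot be assigned to either. Likewise, the interval of EIF3B was shared with the gene SNX8. Other list members shared an interval too, and members of 1 list that did so, such as HOXC6 and HOXC9, were each counted.

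In metabolism, nucleotide and one-carbon synthesis had 31 of 35 genes bound (88.6%). PPAT, the enzyme that commits to purine synthesis, was the highest with 96 and 94, and IMPDH2 the lowest with 18 and 14, while CTPS2, IMPDH1, PRPS1 and PRPS2 were not bound. Of 27 genes of glycolysis, lactate and glutamine metabolism 22 (81.5%) were bound, led by SLC16A1, the lactate transporter MCT1, with 134 and 103, and ending with the glutamine transporter SLC38A2 with 22 and 25. PFKL, ALDOC, TPI1, PGK1 and SLC16A3 were not. For polyamines 9 of 14 genes (64.3%) were bound, and 13 of the 14 had a promoter peak in the list of replicate 1. AZIN1, an antizyme inhibitor, was highest at 55 and 49 and ARG2 lowest at 18 and 19. SMS, SAT1, PAOX, SMOX and OAZ2 were not bound.

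Respiratory complex I was near the 38.6% of all coding genes, with 16 of 37 genes (43.2%, Wilson 28.7 to 59.1), 27 in replicate 1 and 18 in replicate 2. Of its 30 genes with CpG-rich starts 13 (43.3%) were bound, below the 53.3% of all such coding genes. NDUFA11 had 129 and 83 fragments and NDUFA13 15 and 16. Mitochondrial protein import had 21 of 31 bound (67.7%), from TIMM22 with 98 and 96 to TOMM22 with 21 and 21. The E-box was present at 8 of the 16 bound complex I genes and at 11 of the 21 bound import genes (52.4%).

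Cell cycle genes were mostly bound too. Of 38 genes for cyclins, CDKs, E2Fs and CDK inhibitors 31 (81.6%) were bound, E2F3 the highest with 107 and 84 and E2F4 the lowest with 14 and 16. DNA replication had 35 of 46 (76.1%), from CDC7, a kinase of origin firing, with 104 and 94 to RFC2 with 20 and 18. Of 30 mitotic kinase and checkpoint genes 21 (70.0%) were bound, from MAD1L1 with 48 and 56 to BUB1B with 22 and 23. PLK1, a mitotic kinase, had a peak of 26 fragments and 320 bp in replicate 1 (chr16:23678499-23678818) and none in replicate 2. That peak lay at an internal start, downstream of the gene's 5′ end (chr16:23677656). Homologous recombination and Fanconi anemia genes were bound in 26 of 34 cases (76.5%), from ATM with 77 and 56 to UBE2T with 19 and 19.

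MYC-bound promoters included those of its own partners and rivals. Of 27 genes in the MYC and MAX network 22 (81.5%) were bound. The repressors MXD3 (165 and 134) and MNT (159 and 164) were the highest, and MYCL, a MYC paralog, was the lowest with 22 and 18. MAX, the obligate partner, had 66 and 42, and MGA, another MAX partner, 46 and 40. MYCN, MLXIPL and TRRAP had no promoter peak in either list, while USP28 had one in replicate 1 only, of 41 fragments. The ratio of scaled pileup between replicates 1 and 2 was 1.85 for this group, against 1.49 for all bound coding genes.

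Other groups of broadly used genes lay above the background too. The spliceosome core and SR proteins had 33 of 41 genes bound (80.5%), from SRSF1 with 103 and 118 to U2AF1 with 13 and 17. AP-1 and immediate early genes had 18 of 27 (66.7%), from KLF10 with 107 and 101 to BATF3 with 22 and 16, chromatin remodelers and histone modifiers 20 of 30 (66.7%), from EZH2 with 80 and 88 to SUZ12 with 17 and 16, and proteasome subunits 29 of 49 (59.2%), from PSME3 with 82 and 67 to PSMF1 with 17 and 16. Across the 29 lists, 22 had a larger bound share than all coding genes, in the reproducible set and in each single list. Among members with CpG-rich starts alone, 20 lists exceeded the 53.3% of all such genes. The nearest to it among these were mitochondrial ribosomal proteins with 40 of 65 (61.5%) and proteasome subunits with 24 of 39 (61.5%). Chromatin remodelers and histone modifiers had 15 of 24 (62.5%). The furthest above was nucleolar ribosome biogenesis, with 42 of 43 (97.7%).

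Genes used mainly by other cell types were rarely bound, and few of them have CpG-rich starts. These were 5 of 415 olfactory receptor, 0 of 94 keratin-associated protein, 1 of 20 blood, 4 of 20 liver, muscle and skin and 7 of 20 neuron genes. The 18.2% of genes without such starts is thus the nearer background, least so for the neuron list. None of 415 olfactory receptor genes was bound, which allows a share of up to 0.917% (Wilson), nor any of 20 liver, muscle and skin markers. Of 94 keratin-associated protein genes only KRTAP2-3 was bound (32 and 34), of 20 blood cell markers only CD8A (48 and 23), and of 20 neuron markers DLG4 (44 and 21), SLC17A7 (35 and 26) and TH (33 and 26), and 3 of 20 lies near the 18.2%. Of 20 ovarian carcinoma and epithelial markers 6 (30.0%) were bound, namely PAX8 (91 and 56), MSLN (84 and 84), MUC1 (55 and 48), KRT7 (50 and 27), CD24 (26 and 21) and KRT18 (16 and 20). PAX8 is a lineage factor of the Müllerian epithelium and MSLN encodes mesothelin. HOX cluster genes were bound in 11 of 39 cases (28.2%), from HOXB7 (43 and 38) to HOXB6 (13 and 15). Most HOX genes have CpG-rich starts (26 of 39). Of these 26, 6 (23.1%) were bound, against 53.3% of all coding genes with such starts. Genes named ZNF, which encode zinc finger proteins, had 207 of 515 (40.2%) bound, from ZNF33B (144 and 77) to ZNF516 (15 and 16). That was close to the 38.6% of all coding genes. Of the 370 with CpG-rich starts 182 (49.2%) were bound, against 53.3% of all such genes. Peaks are not expression, so these counts name no cell type.

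**Figure D4:**
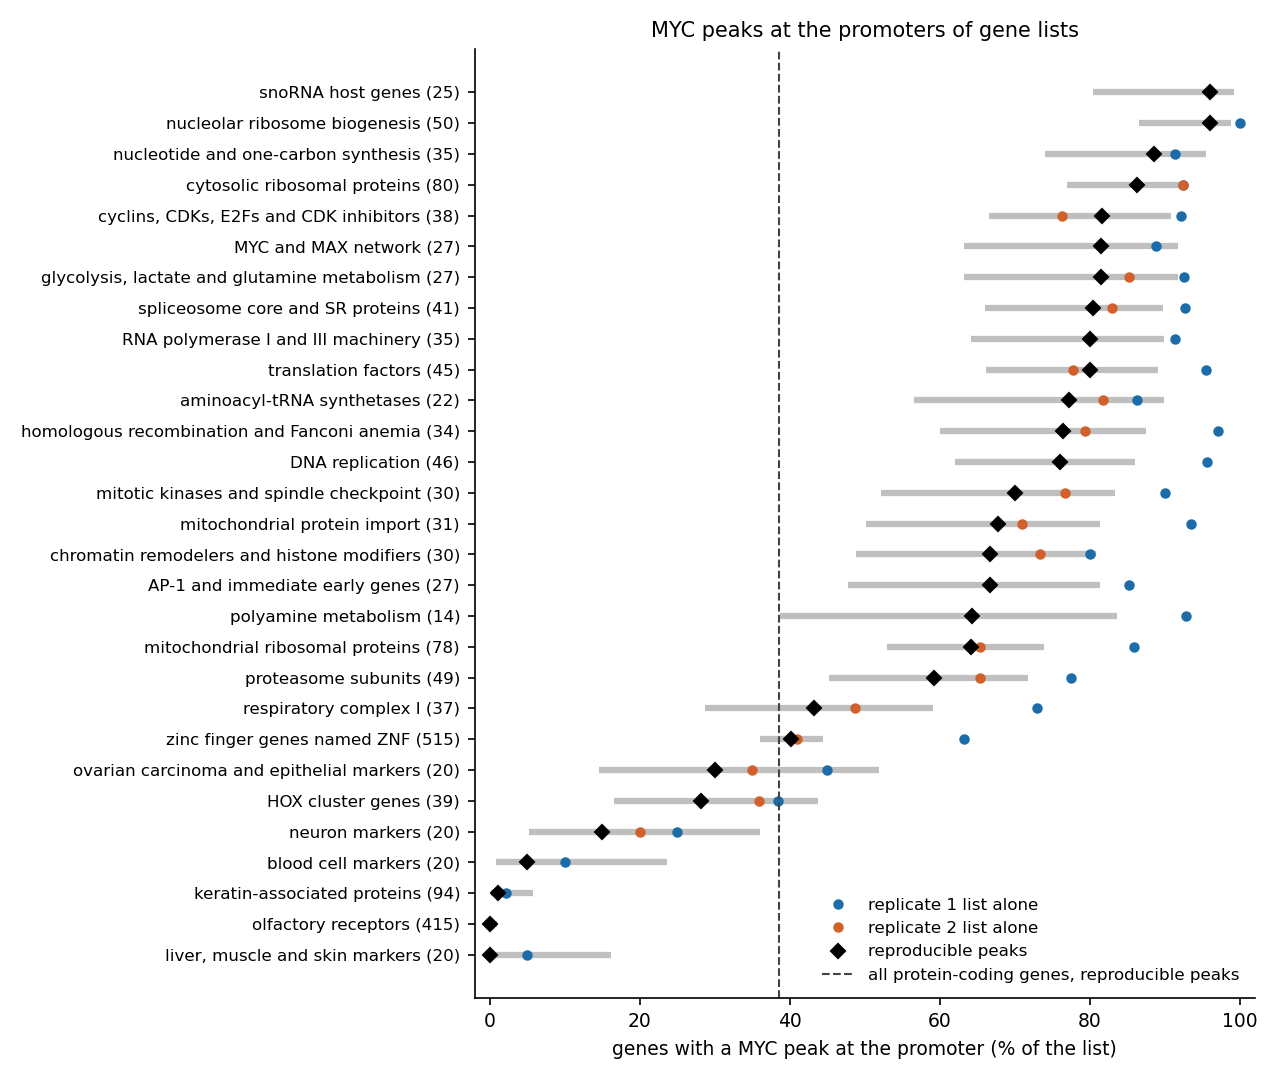
Percentage of the members of each gene list with a reproducible MYC peak at the promoter (diamonds, with 95% Wilson intervals) and by each replicate's own list (points, hidden where they coincide with a diamond), against the 38.6% of all coding genes. Nucleolar ribosome biogenesis reached 96%, while olfactory receptors had 0 of 415.

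Single genes of interest were spread over the range of heights. NCL, a nucleolar protein of rRNA maturation, had 59 and 58 fragments over 1933 bp (chr2:231463480-231465412), and NPM1 80 and 93 over 1962 bp (chr5:171387299-171389260). CAD had 39 and 46, EIF4E 36 and 42, and LDHA 58 and 32. CCND2, which encodes cyclin D2, and TERT, which encodes telomerase, are known MYC targets elsewhere and had no promoter peak in either list. CDKN1A, the CDK inhibitor p21 that MYC is known to repress, was bound at an internal start with 31 and 20 fragments over 1057 bp (chr6:36678459-36679515), and the interval held no E-box.

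Among genes that the study names, CDK4, ODC1, JMJD6, MYC, HSF1, HSPA1B and PLK1 were examined singly. All of these but PLK1 had a peak in both libraries. The study reports MYC binding at the PLK1 promoter from gene tracks, which is another measure than a peak called in both lists. Here the PLK1 peak, at an internal start, was not reproducible, as described above. Other genes that the study names as bound by MYC, such as ESRRA, NEAT1 and MED15, are not reported here. CDK4 had 69 and 52 fragments over 1012 bp (chr12:57751694-57752705), ODC1 46 and 47 over 1897 bp (chr2:10447599-10449495), and JMJD6, a hydroxylase of the nucleus, 43 and 42 over 1576 bp. The MYC gene itself had 80 and 41 over 1519 bp (chr8:127735041-127736559), and HSF1, the heat shock regulator, 52 and 50 over 2128 bp (chr8:144290479-144292606). HSPA1B, a heat shock chaperone, had 108 and 59 over 1526 bp, and its near-identical copy HSPA1A makes the placement of its reads uncertain. MYC and HSPA1B were clearly taller in replicate 1, whereas ODC1, JMJD6 and HSF1 were near equal in raw fragments.

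Among reproducible intervals, the highest by pileup stood at small nuclear RNA genes, although the tallest peak of either list, with 1050 fragments, was intergenic, in replicate 1 and not reproducible. Of the 10 highest intervals, 8 lay in the array of U2 snRNA genes on chromosome 17, which held 16 reproducible intervals, 13 of them with a U2 gene. The pileups of the 16 ran from 50 to 656 in replicate 1 (median 216) and from 54 to 491 in replicate 2 (median 159.5). The other two of the 10 were the shared promoter of DDX42 and CCDC47 (chr17:63773323-63774650, 215 and 255) and a lncRNA promoter on chromosome 1 (chr1:16903874-16905681, 224 and 184). Fold enrichment over IgG at the 16 intervals ran from 7.25 to 41.3 in replicate 1 and from 7.05 to 24.6 in replicate 2. The interval with 656 and 491 fragments had 23.8 and 14.7. At the promoter of DDX42 and CCDC47 it was 77.8 and 78.1, so by fold enrichment the array was not the highest. The 13 U2 genes have 3 distinct sequences, and how reads with several matches were placed is not given in the sources used here, so the height of each copy is uncertain.

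Because of these, the small RNA genes were examined as classes, chosen after their values had been seen. A gene was counted where a reproducible interval lay within 200 bp, a rule that 125 of all 5113 annotated small RNA genes met (2.44%), many of which are inactive copies. All 4 U1 genes (123 to 206 fragments in replicate 1, 85 to 159 in replicate 2), all 13 U2 genes (145 to 656 and 96 to 491) and all 11 other snRNA genes that RNA polymerase II transcribes (48 to 86 and 20 to 59) were bound. Of 8 annotated U3, U8 and U13 snoRNA genes, SNORD3D listed as 2 of them, which RNA polymerase II also transcribes, 7 were bound (76 to 154 and 44 to 90 over 6 intervals), and SNORD118 had a peak in replicate 1 only. Of 19 genes of RNA polymerase III 7 (36.8%) were bound, 13 in the list of replicate 1 and 5 in that of replicate 2, with peaks of 29 to 90 and 17 to 49. The highest of these was RPPH1, the RNA of RNase P, with 90 and 39, while RN7SK had a peak in replicate 1 only. The summits at RPPH1, RNU6-7, RN7SL1, RN7SL2, RNU6-2 and RMRP lay in promoter windows of protein-coding or lncRNA genes. So did some at polymerase II genes, such as RNU1-1 and RNU11, and such peaks cannot be assigned to either gene. RN7SL2, RNU6-2 and the snRNA gene RNU5A-1 counted as bound because the merged interval came within 200 bp. No replicate 2 peak itself lay within 200 bp of them. In the 4 RNA polymerase II classes, no bound interval had an E-box within 250 bp of its summit (0 of 4, 0 of 13, 0 of 10 and 0 of 6 intervals), and 1 of 7 did among polymerase III genes. Of all reproducible intervals 23.7% had one, and of the highest quintile by pileup 36.0%. The 13 U2 genes have only 3 distinct sequences, so their intervals are not separate observations.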

How the data were processed

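The authors aligned paired reads to GRCh38 with Bowtie2 (bcl2fastq 2.20.0 upstream) and called peaks per MYC library against 1 IgG library. Per the file headers, MACS 2.2.9.1 ran on fragments at a p-value threshold of 1e-10, scaling the larger library down. That header numbers the IgG library while the labels leave it unnumbered. The deposited lists give summit pileup as a signal, −log10 p-values and fold enrichment as a ratio. Pileups were whole fragments with no trace of scaling, and were scaled to 1000000 filtered fragments. The IgG library had no peak list, and the HSF1 lists served only for a count.

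Both MYC lists were merged at 1 bp overlap. Summits were assigned in the order promoter, exon, intron, intergenic, using GENCODE 44. Named genes were the 10 highest and 5 widest intervals, and the highest and lowest bound member of each list. Sets of 5 or fewer exceptions and selected genes that the study or textbooks name were also given. All ovarian and epithelial markers are named too, as are NOP56 and IGF2BP1. MNT, MAX, MGA, SEPTIN9, PLEC, UBTF and the small RNA genes were added after their values were seen. One further unbound list member is not reported here. Members and lists were chosen with earlier results of these data known. One group of 2 libraries allows no test, so values are descriptive. Alternatives changed the overlap, threshold, promoter definition, summit and window. Scripts used Python 3.11.15, pandas 2.3.3, scipy 1.17.1 and pysam 0.24.0, and were tested on simulated lists.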

Additional observations from a re-analysis of the deposited data

How the results depend on the processing

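The number of reproducible peaks, 11756, became 26334 for the union and 7306 at a −log10 p of at least 20. A single list alone gave 13278 to 25623. The promoter share, 59.6%, was 43.4% for the union, 75.4% with a 3 kb window and 38.4% from gene 5′ ends only, and 43.4% to 56.4% in single lists. The median width, 774 bp, was 475 bp for the union, 890 bp at the stricter threshold and 437 bp for the part common to both replicates, and 451 to 460 bp in single lists. The number of bound coding genes stayed within 1.5 times of 7727, from 5507 to 11004. The E-box share within 100 bp of the summit, 8.32%, was 6.49% for the union, 9.70% at the stricter threshold, 2.29% within 50 bp, 23.7% within 250 bp, and 8.58% and 7.15% with the summit of replicate 1 or 2, and 6.74% to 6.82% in single lists. Spearman's rho between the replicates, 0.70, was 0.52 for fold enrichment. Of 29 gene lists 3 changed sides of the background: by the nearest start, with 34.3% of all coding genes called, respiratory complex I had 32.4%, ovarian and epithelial markers 40% and ZNF genes 33.6%, and with a 3 kb window ZNF genes had 40.97% against 41.4%. The cause was not tested. No paired analysis was possible because there was 1 group and no test between groups. With 2 libraries of 8265647 and 10084407 fragments, a gene without a peak is one below the threshold at this depth, not one shown to lack binding.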

Other observations

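Bound genes were unevenly spread over chromosomes. On chromosome X 99 of 859 coding genes (11.5%) had a reproducible promoter peak, against 31.7% on chromosome 7 and 46.3% on chromosome 16, the lowest and highest of the autosomes. Peaks were densest on chromosome 19, with 12.3 per Mb, and chromosome 17, with 10.1 per Mb. Among 206 bins of 10 Mb with at least 20 intervals, the bin from 140 to 150 Mb of chromosome 8 (109 intervals), where HSF1 and PLEC lie, had the highest median pileup in replicate 2, 42, and 48 in replicate 1. In replicate 1 bins from 90 to 100 Mb of chromosome 2 and from 70 to 80 Mb of chromosome 6 were higher, both with 50, and had 38 and 33 in replicate 2. The medians over all such bins were 34 and 26, and the bin that holds MYC had 47 and 34. Copy number was not measured here, and its part in these heights was not tested.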
